A study of Mus musculus with 8 samples.

Results

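The comparison described here is that of bone marrow stem and progenitor cells 72 h after a single injection of interferon alpha (IFNα) with the cells of control mice, and it covers every gene that could be tested. Cells of the control and the 72 h library were kept when their hashtag named 1 mouse, at most 5% of their unique molecular identifiers (UMIs) came from mitochondrial genes and at least 700 genes were detected. This left 2474 control cells and 2449 cells at 72 h, together 4923 of the 10046 kept cells of the series. Raw UMIs were summed per mouse, so that 4 mice at 72 h were set against 4 control mice, 8 of the 16 mice measured.

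All mice were wild type C57Bl/6 animals of 12 to 14 weeks. Treated mice had received recombinant mouse IFNα under the skin, 50000 IU for 20 g of body weight, and control mice 100 µl of PBS. Marrow cells were sorted as lineage-negative Kit-positive (LK) cells, to which LK CD150+ CD48- CD34- cells, a population rich in hematopoietic stem cells (HSCs), were added, and RNA was read by 10x Genomics 3' single-cell sequencing. The 4 mice of a group carried different hashtag antibodies but were run as 1 library, so that a time point and its library cannot be told apart.

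IFNα is a cytokine made in response to viruses. It binds the receptor formed by IFNAR1 and IFNAR2, which signals through the kinases JAK1 and TYK2 to a complex that includes STAT2 and IRF9, which binds interferon-stimulated response elements in front of interferon-stimulated genes (ISGs). In the marrow, HSCs sit at the top of the LK compartment, and below them stand lymphoid-primed multipotent progenitors (LMPPs) and progenitors of megakaryocytes (MK), red cells, neutrophils, monocytes, and of mast cells with basophils and eosinophils (Ba/MC/Eo).

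The mice at 72 h had 489 to 775 kept cells and 8701872 to 13134876 UMIs each. Control mice 1 to 3 had 764 to 827 cells and at least 17178076 UMIs, while control mouse 4 had 58 cells and 1102706 UMIs, so that its values carry the largest counting error. The median cell held 18964.5 UMIs in the control library and 14763 at 72 h. Levels are given as CPM, the counts of a gene relative to the library total after scaling by TMM factors, and values listed for 4 mice run from mouse 1 to mouse 4.

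Control cells fell into 14 clusters, and 11 of these could be named from marker genes. They formed HSC-like, LMPP-like, MK progenitor-like, erythroid progenitor-like, myeloid progenitor-like and Ba/MC/Eo progenitor-like classes, to which the cells of the 72 h mice were matched. The cluster 11 of the LMPP-like class was led by the ISGs Iigp1 and Isg15 beside Dntt and Flt3, and it made up 25.7% of that class in control and 11.9% at 72 h. Of all kept cells it held 1.72 to 4.24% in the control mice and 0.873 to 3.07% at 72 h, with overlap. Control cells were clustered with ISGs included, whereas cells at 72 h were matched without ISGs. The part of this matching in the difference was not tested.

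Of 12042 genes tested in the sums over all cells, 2277 were higher at 72 h with an adjusted p under 0.05 (18.9%) and 2223 were lower (18.5%). Counts of list members in these sums are to be read beside these shares. Beyond a 2-fold change, 205 genes had risen (1.7%) and 140 had fallen (1.16%). For comparison, 831 genes (6.9%) were past the same limits at 3 h and 267 (2.22%) at 24 h against the same control mice. Between 24 h and 72 h, a comparison without control mice, 13 genes rose over 2-fold (0.108%) and 78 fell (0.648%). The 4 mice at 72 h lay above all 4 control mice for 1831 genes (15.2%) and below them for 1771 (14.7%). When every cell was thinned to 3000 UMIs, 67 genes rose and 78 fell over 2-fold. A sum over all cells does not separate fewer cells of a type from less RNA per cell.

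**Figure D1:**
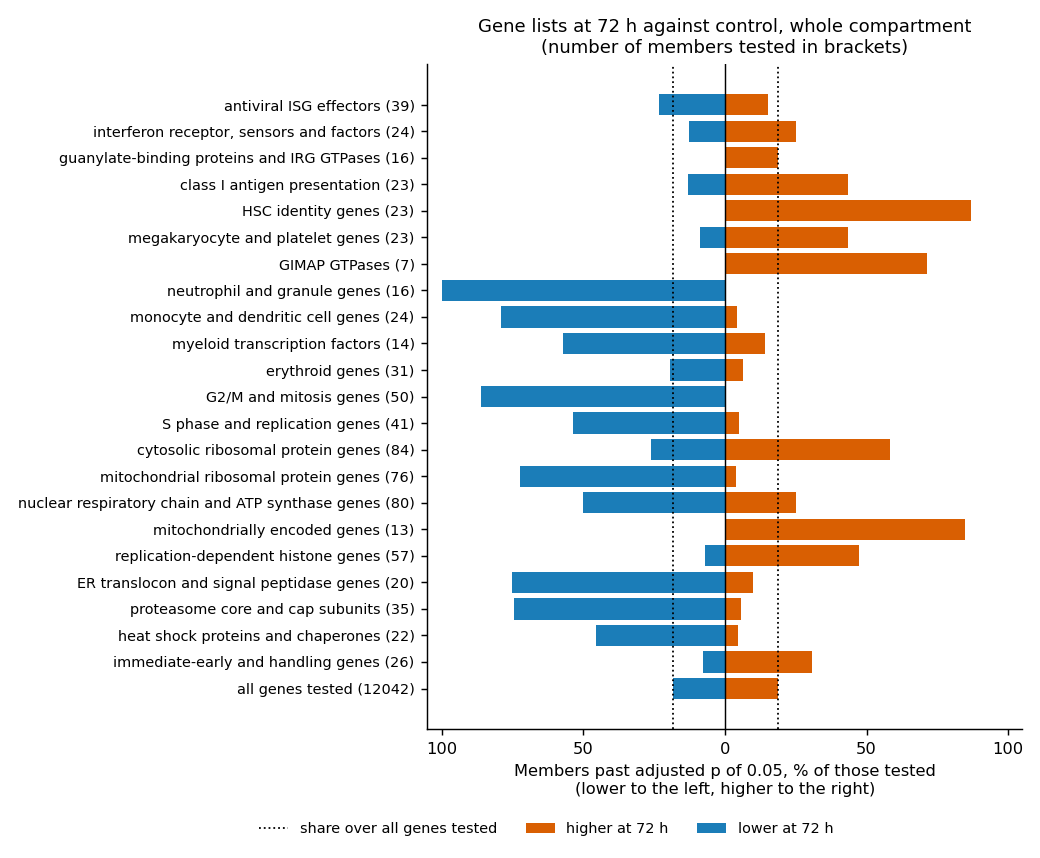
Share of the tested members of 22 gene lists that were higher (orange, right) or lower (blue, left) at 72 h with an adjusted p under 0.05, in sums over all cells of 4 mice against 4, in percent; the last row and the dotted lines give all genes tested, 18.9% higher and 18.5% lower. Antiviral ISG effectors sit near these lines, neutrophil, monocyte and mitosis genes lie to the left, and HSC identity and mitochondrially encoded genes to the right.

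ISGs were the genes furthest from control at 3 h, and most were near the control level at 72 h. Of 39 antiviral ISG effectors tested, 6 were higher and 9 lower at 72 h, with a median log2 fold change of -0.02, beside 0.02 over all genes tested. Without 72 h mouse 1, 5 were lower. The same list had a median of 4.10 at 3 h and 1.49 at 24 h. Ifitm1, a membrane protein that restricts viral entry, measured 294, 319, 301 and 321 CPM in the control mice and 540, 451, 676 and 494 CPM at 72 h. All 4 treated mice lay above the controls, and the rise was 0.82 on the log2 scale (SE 0.13, n = 4 and 4). Ifi44 (0.28, SE 0.17) and Ifit2 (0.43, SE 0.18) did not pass the test. Oas1a, which makes the second messenger that activates RNase L, rose by 0.67 (SE 0.12), and the secreted glycoprotein gene Lgals3bp by 0.39 (SE 0.06). Ly6e, another membrane protein with antiviral activity, was on the other side of control at 72 h, with 644 to 693 CPM in the control mice and 569 to 613 CPM at 72 h, a fall of -0.20 (SE 0.03) after a log2 change of 0.87 at 3 h.

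Genes that sense interferon or viral RNA showed small differences in both directions. Among 24 tested, 6 were higher and 3 lower at 72 h, with a median of 0.06. List counts in this paragraph stand beside 18.9% higher and 18.5% lower over all genes tested. Irf2, a factor that competes with the activating IRFs, measured 66.0 to 73.1 CPM in control mice and 84.4 to 96.4 CPM at 72 h, a log2 fold change of 0.44 (SE 0.05), and Jak1 was higher by 0.23 (SE 0.04). Ifnar2 was lower by -0.40 (SE 0.06), while its partner Ifnar1 did not pass the test (-0.01, SE 0.08), nor did Irf9 (0.03, SE 0.08) and Irf7 (-0.14, SE 0.19). Of the 16 guanylate-binding proteins and immunity-related GTPases, 3 were higher and none lower with edgeR at an adjusted p under 0.05, and Gbp2 rose from 5.22 to 9.10 CPM in control mice to 12.5 to 13 CPM at 72 h (0.60, SE 0.12). Iigp1, also among the 3, lost its call without any mouse other than control mouse 4 (edgeR adjusted p of 0.053 to 0.172). Among 7 PYHIN genes, sensors of DNA and regulators of transcription, 2 were higher and 1 lower, and among 6 PARP and Dtx3l genes 2 were higher and none lower with edgeR. Mnda measured 0.870 to 5.18 CPM in control mice and 0.778 to 1.84 CPM at 72 h (-1.23, SE 0.36), with overlap, and lost its call without control mouse 1 (-0.65, edgeR adjusted p = 0.139). Control mouse 4 stood above the other control mice in Iigp1, with 24.4 CPM against 3.99 to 5.39 CPM, and in Isg15, with 61.8 CPM against 18.2 to 26.3 CPM, where a single MK progenitor-like cell held 50 Isg15 UMIs.

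Major histocompatibility class I genes present peptides to T cells and respond to interferon, and 10 of 23 genes of this pathway were higher at 72 h with 3 lower. The nonclassical genes of the Q region on chromosome 17 were furthest from control. H2-Q6 (chr17:35424850-35430055) measured 29.6, 29.6, 30.9 and 28.7 CPM in control mice and 57.0, 58.8, 57.2 and 58.8 CPM at 72 h, a log2 fold change of 0.95 (SE 0.06). H2-Q7 (chr17:35439155-35443773) measured 99.7 to 112 CPM and then 175 to 197 CPM (0.82, SE 0.06), and H2-Q4 (chr17:35379617-35385290) 28.7 to 40.4 CPM and then 67.4 to 74.7 CPM (0.94, SE 0.08). In each of the 3 genes the groups did not overlap. At 24 h their log2 fold changes against control were 1.27, 1.22 and 1.12. The classical gene H2-K1 was higher by 0.29 (SE 0.04) at 72 h. Of 9 class II genes 2 were higher, and Cd74, the invariant chain, ranged over 0.870 to 63.8 CPM in control mice and 13.6 to 83.4 CPM at 72 h without passing the test. The Q genes are close relatives of each other, and how the counting assigned reads that fit several of them is not given in the sources used here.

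Within the HSC-like class more antiviral members were lower than higher. Of 38 members tested there, 13 were lower and 1 was higher, with a median of -0.43, where 1.64% of the 9842 genes tested in that class were lower and 3.57% higher. The summed level of the list did not separate the groups, with 2791 to 4288 CPM in control mice and 3458 to 3764 CPM at 72 h. In the LMPP-like class 6 of 38 were lower and 2 higher with a median of -0.39, against 1.42% and 3.56% of all genes, and 3 were lower without control mouse 3 or 72 h mouse 4. With control cells matched like those at 72 h, 5 were lower and 2 higher. Within its cluster 3 alone 3 were lower and 2 higher, where 1.83% of all genes were lower, and within cluster 11 none of 36 passed with edgeR, where 0.132% were lower. In the MK progenitor-like class 4 were lower and none higher with edgeR, against 1.46% and 2.87%. The myeloid progenitor-like class showed 1 lower and 2 higher with a median of 0.00, against 7.32% and 7.85%, and the erythroid progenitor-like class 1 lower and none higher with edgeR, against 1.44% and 3.03%. Control mouse 4 had under 10 cells of the LMPP-like, MK and erythroid classes and was not in those fits.

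The promoters of Isg15, Ifit1 and Ifit3 are shown because these genes were among those furthest below control in HSC-like cells. The sequences run from 250 bases before to 50 bases after the start of transcription in the RefSeq annotation of GRCm38.p6, 5' to 3' on the strand of the gene, and capitals mark matches to the core of an interferon-stimulated response element, taken as GAAA, any 2 bases and GAAA, or on the other strand TTTC, any 2 bases and TTTC. Isg15 lies at chr4:156200769-156201068 (minus strand) with 3 overlapping matches, the first starting 78 bases before the start.
Isg15: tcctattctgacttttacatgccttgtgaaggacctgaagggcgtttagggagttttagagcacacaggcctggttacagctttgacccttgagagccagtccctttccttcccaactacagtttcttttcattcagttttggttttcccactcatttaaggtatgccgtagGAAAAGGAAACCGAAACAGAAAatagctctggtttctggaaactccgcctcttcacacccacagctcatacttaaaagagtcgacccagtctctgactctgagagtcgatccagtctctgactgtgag
Ifit1 lies at chr19:34640639-34640938 (plus strand) with 2 matches, the first 104 bases before the start.
Ifit1: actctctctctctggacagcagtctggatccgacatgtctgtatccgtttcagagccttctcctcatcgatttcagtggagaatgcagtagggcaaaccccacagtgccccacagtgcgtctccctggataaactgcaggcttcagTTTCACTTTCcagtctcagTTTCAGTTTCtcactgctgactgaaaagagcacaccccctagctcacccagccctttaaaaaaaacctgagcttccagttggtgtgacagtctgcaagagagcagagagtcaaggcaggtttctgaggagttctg
Ifit3 lies at chr19:34583279-34583578 (plus strand) with 2 matches, the first 156 bases before the start.
Ifit3: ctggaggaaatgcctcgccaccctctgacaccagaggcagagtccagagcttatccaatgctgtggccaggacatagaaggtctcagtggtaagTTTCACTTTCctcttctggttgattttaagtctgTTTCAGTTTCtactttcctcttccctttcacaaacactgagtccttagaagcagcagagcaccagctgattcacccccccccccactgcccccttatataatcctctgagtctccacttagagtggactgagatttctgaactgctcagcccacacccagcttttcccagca
On either strand, 16 of the 32 antiviral effectors with a promoter in the table held such a match, beside 3.99% of 27025 genes with a promoter, and 5 of 9 did among those lower in HSC-like cells. A match is a description of the sequence and no evidence of binding.

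Isg15 codes for a ubiquitin-like modifier of proteins. In HSC-like cells it measured 83.3, 35.4, 78.0 and 30.6 CPM in the control mice and 26.8, 28.8, 25.7 and 27.3 CPM at 72 h. The 4 treated mice lay close together and below every control mouse, 2 of which were far above the other 2, and the log2 fold change was -1.29 (SE 0.18, edgeR adjusted p = 2.7e-06). Control mouse 4 had 12 HSC-like cells with 119053 UMIs, so that its value rests on few Isg15 UMIs. At 3 h it had been 5.05. Isg15 UMIs were found in 110 of 416 control HSC-like cells (26.4%) and in 144 of 741 at 72 h (19.4%), at median depths of 11071 and 10893 UMIs per cell. In myeloid progenitor-like cells the shares were 16.6% and 20.6%. A single HSC-like cell held up to 33 Isg15 UMIs in control and up to 12 at 72 h.

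Ifit1 and Ifit3 code for proteins that bind viral RNA. Ifit1 measured 20.8, 18.4, 18.1 and 7.65 CPM in control HSC-like cells and 7.60, 8.13, 4.13 and 6.06 CPM at 72 h (-1.54, SE 0.28), where control mouse 4 with 12 such cells overlapped the treated mice. Ifit3 measured 17.4, 2.95, 11.3 and 7.65 CPM and then 0.724, 0.625, 1.83 and 0.505 CPM, with no overlap. Its log2 fold change of -3.47 (SE 0.47) rests on few UMIs at 72 h and in control mouse 4. Rtp4, a chaperone of membrane receptors, measured 60.2, 73.8, 78.0 and 53.5 CPM and then 43.4, 48.1, 32.1 and 31.8 CPM (-0.85, SE 0.13). Oasl2, of the oligoadenylate synthetase family, fell by 0.74 (SE 0.14) with no overlap, and Ifi27l2a, an interferon-induced mitochondrial protein, by 1.27 (SE 0.23) with overlap at control mouse 4.

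The count of 13 lower members in HSC-like cells was 9 without control mouse 1 and ranged up to 14 when each of the 8 mice was left out in turn. Control classes came from clusters found with all variable genes, ISGs included, whereas cells at 72 h were matched without ISGs. With control cells matched in that same way, a choice made after the data had been seen, 13 members were again lower and 1 higher, and Isg15 had a log2 fold change of -1.32. Within cluster 2, the larger cluster of the class, 14 members were lower (1.47% of all genes) and none higher with edgeR, and within cluster 10 it was 5 (0.718%) and none, in fits without control mouse 4. Over all genes, 161 were lower in HSC-like cells, but 97 without control mouse 3 and 100 without control mouse 2. The genes named within classes were picked for their role after their values had been seen.

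The difference between classes was tested directly. Of 10148 genes, 162 (1.6%) differed in their change between HSC-like and myeloid progenitor-like cells, 127 higher (1.25%) and 35 lower (0.345%) in HSC-like cells. Isg15 was lower in HSC-like cells by a log2 difference of -1.70 (SE 0.25), Ifi27l2a by -1.75 (SE 0.31) and Ifit1 by -2.80 (SE 0.61). The Ifit1 difference lost its call without 72 h mouse 1 (adjusted p = 0.064) or mouse 3 (0.098). Rtp4 and Oasl2 did not pass this test. Among genes above control, Ifitm1 had risen less in HSC-like cells (-0.71, SE 0.10, and -0.47 without control mouse 1), as had H2-Q6 (-0.96, SE 0.16) and H2-Q7 (-0.51, SE 0.11), while for H2-Q4 the difference of -0.09 (SE 0.15) did not pass.

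These differences can be read from the levels in each mouse. In myeloid progenitor-like cells, H2-Q6 measured 9.20 to 13.3 CPM in control mice and 24.0 to 33.1 CPM at 72 h (1.26, SE 0.13), whereas in HSC-like cells it measured 74.6 to 99.4 CPM and 88.3 to 100.0 CPM (0.25, SE 0.10) and did not pass. Ifitm1 measured 68.3 to 115 CPM and then 132 to 231 CPM in myeloid progenitor-like cells (1.02, SE 0.14) and 604 to 1064 CPM and then 996 to 1268 CPM in HSC-like cells (0.28, SE 0.08), where the call was lost without any of 5 of the 8 mice. The levels of both genes at 72 h remained lower in the myeloid than in the HSC-like class. Ifitm1 is also a member of the list of HSC identity genes. In myeloid progenitor-like cells the summed level of that list was 516 to 648 CPM in control mice and 688 to 844 CPM at 72 h. The part of the mixture of cells within the class in the rises of Ifitm1 and H2-Q6 was not tested.

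**Figure D2:**
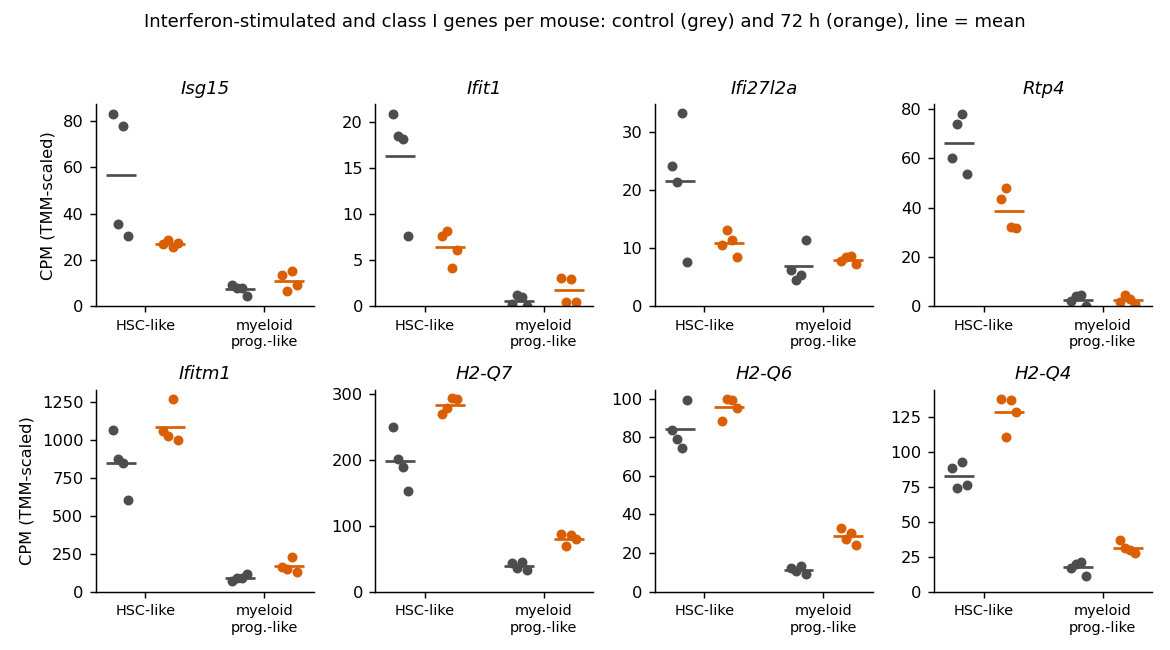
Levels of 8 genes per mouse in CPM from 0, in HSC-like cells and myeloid progenitor-like cells, with control mice in grey, mice at 72 h in orange and the mean as a line. Isg15, Ifit1, Ifi27l2a and Rtp4 lie lower at 72 h in HSC-like cells, and H2-Q6, H2-Q7 and Ifitm1 lie higher at 72 h in myeloid progenitor-like cells.

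Genes of neutrophils and their granules were below control. All 16 tested members were lower at 72 h, 9 of them over 2-fold, with a median of -1.08, beside medians of -0.89 at 3 h and -0.77 at 24 h. Elane (chr10:79886247-79888215), the neutrophil elastase gene, measured 5538, 5795, 5184 and 3712 CPM in control mice and 2189, 1895, 2652 and 2061 CPM at 72 h. Every treated mouse lay below every control mouse, and the fall was -1.21 (SE 0.13, edgeR adjusted p = 3.4e-07). Its neighbour on the chromosome, Prtn3 (chr10:79874476-79883174), coding for proteinase 3, fell by 0.94 (SE 0.10), Hp, the haptoglobin gene, by 1.13 (SE 0.11) and the glutathione transferase gene Gstm1 by 0.99 (SE 0.10). S100a9 (chr3:90692632-90695721), a calcium-binding protein of the cytosol of neutrophils, measured 21.6, 28.7, 49.4 and 9.57 CPM in control mice and 6.27, 3.25, 3.49 and 5.44 CPM at 72 h. The control mice differed up to 5-fold among themselves, no treated mouse reached them, and the log2 fold change was -2.75 (SE 0.45). Markers of mature neutrophils had a summed level of 103 to 307 CPM in control mice and 62.6 to 80.3 CPM at 72 h, and their part in these falls was not tested.

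Monocyte genes and the factors of the myeloid lineage moved in the same direction. Of 24 monocyte and dendritic cell genes 19 were lower and 1 higher, with a median of -0.53. Ly6c2, a surface antigen of inflammatory monocytes, measured 344 to 478 CPM in control mice and 141 to 205 CPM at 72 h (-1.25, SE 0.13), the signalling adaptor gene Tyrobp 322 to 342 CPM and then 206 to 233 CPM (-0.58, SE 0.06), and the cystatin C gene Cst3 704 to 788 CPM and then 503 to 576 CPM (-0.46, SE 0.05). Mgl2, a lectin of macrophages and dendritic cells, was among the 12 largest falls with -1.64 (SE 0.15). Of 14 myeloid transcription factors, 8 were lower and 2 higher. Cebpe, needed for the late granules of neutrophils, fell from 53.1 to 91.0 CPM to 28.7 to 37.1 CPM (-1.28, SE 0.15), Cebpb by 0.71 (SE 0.07) and Spi1, coding for PU.1, by 0.40 (SE 0.05). Klf4, a factor of monocytes that is also an immediate-early gene, fell by 1.48 (SE 0.24). Irf8 and the receptor gene Csf1r, which mark the monocyte branch, were lower by -0.59 (SE 0.09) and -0.43 (SE 0.12). Kit, the stem cell factor receptor used for the sort, was higher by 0.53 (SE 0.05), the 1 member of 12 growth factor receptors to be so, where 3 were lower.

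Neutrophil genes were also lower inside the myeloid progenitor-like class. Of 15 neutrophil and granule genes tested there, 12 were lower and none higher with edgeR, with a median of -0.41, where 7.32% of all genes tested in the class were lower. Elane measured 11982, 12504, 12182 and 9602 CPM in control mice and 8732, 7726, 9430 and 9066 CPM at 72 h, with no overlap and a log2 fold change of -0.41 (SE 0.07), and it was itself among the genes that led clusters of this class. Cebpe fell by 0.54 (SE 0.09) and Gstm1 by 0.49 (SE 0.08). Irf8, F13a1 and Csf1r did not pass the test there, with changes of 0.02, 0.17 and 0.30, of which that of Csf1r passed as higher without control mouse 4 or 72 h mouse 3. The monocyte and dendritic cell list had 3 members higher and 3 lower of 22, where 7.85% and 7.32% of all genes were higher and lower in the class. Within cluster 1 alone 6 members of that list were lower, where 3.03% of all genes were.

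The class is made of 3 clusters, and their proportions differed between the groups. Cluster 8, led by S100a8 and S100a9, held 25.4% of the class in control and 10.3% at 72 h, and it had too few cells per mouse to be tested alone. Within cluster 1, led by Ly6c2 and Elane, 2 of 13 granule genes were lower with a median of -0.11, against 3.03% of all genes, and within cluster 6, led by Ms4a6c and F13a1, none of 12 passed with edgeR, with a median of -0.03, where 2.68% of all genes were lower. In HSC-like cells, where Elane is low, it fell from 53.5 to 134 CPM to 49.0 to 54.3 CPM (-1.13, SE 0.18), with overlap at control mouse 4, while Prtn3 (0.05) and Mpo (0.30) did not pass. The changes of Elane, Mpo and Prtn3 differed between the 2 classes by -0.63 (SE 0.09), 0.52 (SE 0.07) and 0.44 (SE 0.04).

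The shares of cells separated the groups in 2 classes, downward in one and upward in the other. Myeloid progenitor-like cells made up 28.0% ± 1.89 (SD, n = 4) of kept cells in control mice and 14.7% ± 2.0 at 72 h, and HSC-like cells 17.7% ± 2.57 and 30.0% ± 1.61. In both classes the mice of the 2 groups did not overlap, and the two-sided exact permutation test gave p = 0.0286, the smallest that 4 against 4 mice allow, and 0.10 after adjustment over 7 classes. The other classes overlapped between groups, though single clusters within them did not. The unnamed cluster 7 made up 6.77 to 8.62% of kept cells in control mice and 9.77 to 12.3% at 72 h. The erythroid cluster 12, led by Hba-a1, made up 2.88 to 4.0% and 1.75 to 2.86%. These clusters were not tested. In the MK progenitor-like class the share was 11.2% ± 2.24 in control and 13.8% ± 1.73 at 72 h (p = 0.143, exact permutation test). HSCs had been added at the sort, so that these shares are also set by the sort.

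**Figure D3:**
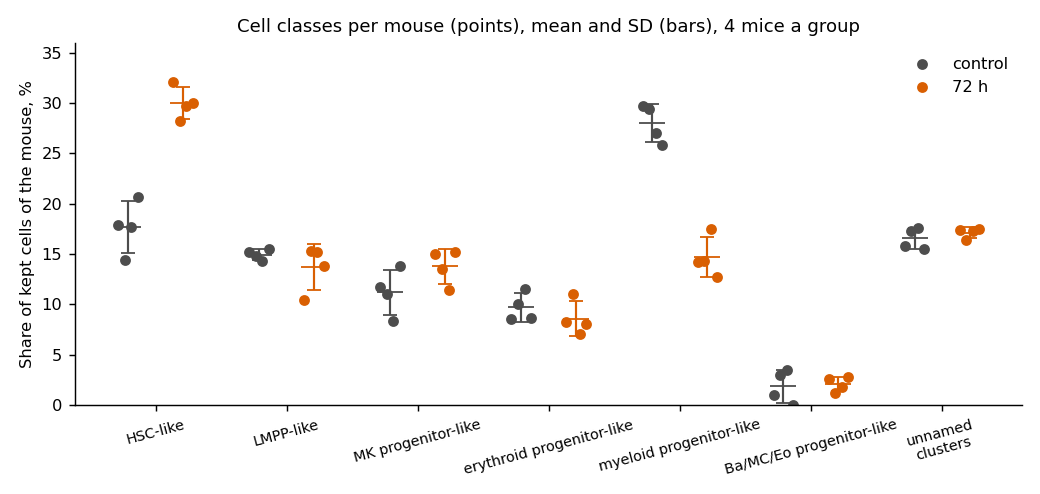
Share of the kept cells of each mouse in each class, in percent, with the mean and SD over 4 control mice (grey) and 4 mice at 72 h (orange). The shares of HSC-like cells lie at 14.4 to 20.7% in control and 28.2 to 32.1% at 72 h, those of myeloid progenitor-like cells at 25.9 to 29.7% and 12.7 to 17.5%, and the other classes overlap.

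Genes known from HSCs were higher in the sums. Of 23 tested, 20 were higher and none lower with edgeR, with a median of 0.51. Mecom (chr3:29951296-30548008), a transcription factor needed by HSCs, measured 13, 9.77, 12.3 and 14.8 CPM in control mice and 23.2, 21.1, 23.8 and 23.5 CPM at 72 h (0.95, SE 0.10). Txnip, an inhibitor of thioredoxin, rose from 112 to 162 CPM to 202 to 228 CPM (0.79, SE 0.07) and Ltb, coding for lymphotoxin beta, by 0.88 (SE 0.12). Within HSC-like cells 2 of these 23 genes were higher and 2 lower, beside 3.57% and 1.64% of all genes, with a median of -0.06. Mecom and Txnip were also among the markers used to name the class, and cells at 72 h entered it by their likeness to its control cells. The levels of such genes within the class are therefore in part set by the choice of cells.

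Megakaryocyte genes followed, with 10 of 23 higher and 2 lower at 72 h and a median of 0.43. The P-selectin gene Selp measured 4.35 to 6.93 CPM in control mice and 7.97 to 10.6 CPM at 72 h (0.57, SE 0.12), and Plek, coding for pleckstrin of platelets, rose by 0.56 (SE 0.12). Within MK progenitor-like cells none of 21 genes passed with edgeR, where 2.87% of all genes were higher and 1.46% lower. Plek was also among the markers used to name that class, so that this count is in part set by the choice of cells. The GIMAP GTPases, best known in lymphocytes, had 5 of 7 higher and a median of 0.56. Gimap6 measured 26.2 to 34.8 CPM and then 43.9 to 50.1 CPM (0.74, SE 0.09). Within HSC-like cells none of 6 GIMAP genes passed with edgeR, where 3.57% of all genes were higher and 1.64% lower. Of 13 genes of lymphoid priming 1 was higher and 1 lower in the sums.

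Of 31 erythroid genes 2 were higher and 6 lower at 72 h, or 13 lower without control mouse 2, 11 without a filter on low counts and 12 without the cells of most UMIs. Over all genes tested 18.9% were higher and 18.5% lower, so that the 6 lower are near that share. Hba-a2, an alpha globin gene, measured 27.3, 2.56, 25.0 and 13.9 CPM in control mice and 5.39, 3.93, 5.0 and 1.17 CPM at 72 h (-2.19, SE 0.48). Control mouse 2 lay among the treated mice, so that the groups overlapped. Cpox, of heme synthesis, fell from 44.7 to 74.0 CPM to 40.4 to 42.7 CPM (-0.43, SE 0.10).

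Among basophil, mast cell and eosinophil genes 8 of 15 were higher and 5 lower (2 with the likelihood ratio test and 1 with DESeq2), but 4 were higher without control mouse 1 or 72 h mouse 3 and 5 without 72 h mouse 4. Gzmb (chr14:56258838-56262260), the granzyme B gene of cytotoxic and mast cells, had the largest rise of the genes named by size. It measured 5.70, 0.681, 4.42 and 8.70 CPM in control mice and 31.9, 22.4, 21.8 and 15.4 CPM at 72 h, with no overlap (2.61, SE 0.44). Its UMIs lay in few cells, 215 UMIs in 27 of 2474 control cells and 1035 UMIs in 44 of 2449 cells at 72 h. The unnamed cluster 7, led by Scin, held 185 UMIs in 17 of 187 cells in control and 660 UMIs in 25 of 262 cells at 72 h.

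In HSC-like cells no Gzmb UMI was seen among 416 control cells, which allows a share of up to 0.721% of cells with a UMI, and at 72 h 368 UMIs were seen in 12 of 741 cells. The 12 cells came from all 4 mice and held 268 of the 812 Cpa3 UMIs, 74 of the 100 Scin UMIs and all 73 UMIs of Cma1, a mast cell chymase, found in HSC-like cells at 72 h. Cpa3, the mast cell carboxypeptidase, was seen in 131 of 741 HSC-like cells at 72 h and 38 of 416 in control. Its level there was 18.0, 38.4, 6.79 and 0 CPM in control mice and 79.3, 78.8, 96.7 and 129 CPM at 72 h (2.32, SE 0.40). Ms4a2, the beta chain of the IgE receptor, rose by 3.53 (SE 1.04), a call that was lost when any of 6 of the 8 mice was left out, and by 7.49 without control mouse 1. With control cells matched like those at 72 h, the change of Cpa3 was 1.51 and that of Ms4a2 1.99, the latter without a call (edgeR adjusted p = 0.167). Cells with Gzmb were not counted with that matching. Control classes came from all variable genes, whereas cells at 72 h were matched without Gzmb, which can move such cells between classes. In myeloid progenitor-like cells Gzmb was seen in 2 of 360 cells at 72 h and in none of 709 control cells. The changes of Cpa3 and Ms4a2 differed between HSC-like and myeloid progenitor-like cells by 1.90 (SE 0.22) and 4.41 (SE 0.66), the latter being 8.58 without control mouse 1, and by 1.16 and 2.95 with the matched control cells. The summed basophil, mast cell and eosinophil list was also higher in LMPP-like cells. It measured 303 to 501 CPM there in control mice 1 to 3 and 541 to 815 CPM at 72 h. In HSC-like cells the sum was 107 to 201 CPM and then 358 to 455 CPM. In myeloid, erythroid and MK progenitor-like cells the groups overlapped. Prg2, the major basic protein of eosinophil granules, measured 63.4, 199, 165 and 0 CPM in control mice and 20.3, 1.12, 3.75 and 44.6 CPM at 72 h, with overlap between the groups, and passed edgeR's quasi-likelihood test but not its likelihood ratio test or DESeq2.

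Jchain, the joining chain of secreted antibodies, had the largest fall of all genes tested, with -7.21 (SE 1.13). It measured 148, 112, 1.12 and 0.870 CPM in the control mice and at most 2.02 CPM at 72 h. In control mouse 1, 2838 UMIs lay in a single cell, and in control mouse 2, 1965 UMIs did. Both cells lay in the HSC-like class, where 14 of 416 control cells held 4815 Jchain UMIs. The HSC-like sums of these control mice thus include a cell rich in a plasma cell marker.

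Genes of cell division were lower. Of 50 genes of G2 and mitosis 43 were lower and none higher with edgeR, with a median of -0.50, and of 41 genes of S phase 22 were lower and 2 higher, with a median of -0.19. Ube2c, a ubiquitin-conjugating enzyme of the anaphase-promoting complex, measured 170, 212, 187 and 138 CPM in control mice and 85.9, 93.8, 84.1 and 84.8 CPM at 72 h (-1.08, SE 0.10). Birc5, coding for survivin of the chromosomal passenger complex, fell from 168 to 198 CPM to 97.1 to 111 CPM (-0.77, SE 0.05) and Pcna, the sliding clamp of DNA replication, from 132 to 158 CPM to 89.6 to 101 CPM (-0.65, SE 0.06). Among 21 regulators of cell-cycle entry 7 were higher and 2 lower, as Mycn, a factor of stem cell growth (0.92, SE 0.14), and Ccnd2, coding for cyclin D2 (0.29, SE 0.05).

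Within classes the mitosis list was lower in 21 of 50 genes in myeloid progenitor-like cells, with a median of -0.28, where 7.32% of all genes were lower. Within its cluster 1 alone 10 of 48 were lower and within cluster 6 alone 23 of 48, where 3.03% and 2.68% of all genes were lower. The list was lower in 7 of 50 in LMPP-like (13 without control mouse 1, 2 without control mouse 2, 4 without 72 h mouse 1 and 14 with labels transferred over all variable genes) and in 4 of 50 in erythroid progenitor-like cells, where 1.42% and 1.44% of all genes were. Within the LMPP-like clusters 3 and 11 alone 13 and none were lower with edgeR, where 1.83% and 0.132% of all genes were lower. In HSC-like cells 1 of 41 was higher and none lower with edgeR, where 3.57% of all genes were higher and 1.64% lower. In MK progenitor-like cells 2 of 43 were higher, where 2.87% of all genes were. With control cells matched like those at 72 h, none was higher and 1 lower with edgeR in HSC-like cells. The unnamed cluster 5 was led by the mitosis genes Nusap1, Prc1 and Ube2c. It held 6.90 to 8.51% of kept cells in control mice and 4.74 to 7.68% at 72 h, with overlap. Its cells are in none of the named classes, so that the mitosis counts within classes are in part set by the choice of cells. In myeloid progenitor-like cells Ube2c fell by 1.26 (SE 0.12) and Pcna by 0.71 (SE 0.07). The difference between HSC-like and myeloid progenitor-like cells was called for Rrm2, a ribonucleotide reductase subunit (1.52, SE 0.27, and 0.90 with the matched control cells), and Top2a, a topoisomerase of dividing cells (0.88, SE 0.16). Over all genes in the myeloid progenitor-like class, 1461 of 9634 (15.2%) passed, beside 512 of 9842 (5.2%) in HSC-like, 474 of 9534 (4.97%) in LMPP-like, 385 of 8604 (4.47%) in erythroid and 374 of 8633 (4.33%) in MK progenitor-like cells, classes that differ in depth.

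Several of the genes with the largest changes were short or had near-identical copies. Among the 12 largest rises were the ribosomal protein gene Rpl35, the predicted genes Gm10020, Gm10076 and Gm8186, the ribosomal pseudogene Rpl27-ps3, the histone genes Hist1h2ap, Hist1h2ae and Hist1h4h, and Lsm7, Gstp1 and Polr2l, which take part in splicing, detoxification and transcription. Rpl35 (chr2:39001580-39005624) measured 644, 668, 665 and 654 CPM in control mice and 2345, 2416, 2365 and 2453 CPM at 72 h. The groups were tight and far apart, with a log2 fold change of 1.86 (SE 0.02, edgeR adjusted p = 9.0e-24). The change was of like size in each class, with 1.86 in HSC-like, 1.90 in LMPP-like, 1.89 in myeloid, 1.95 in erythroid and 1.84 in MK progenitor-like cells. Against the same control mice Rpl35 was higher by 2.42 at 3 h and 1.22 at 24 h, and from 24 h to 72 h it rose by 0.65 (SE 0.02).

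**Figure D4:**
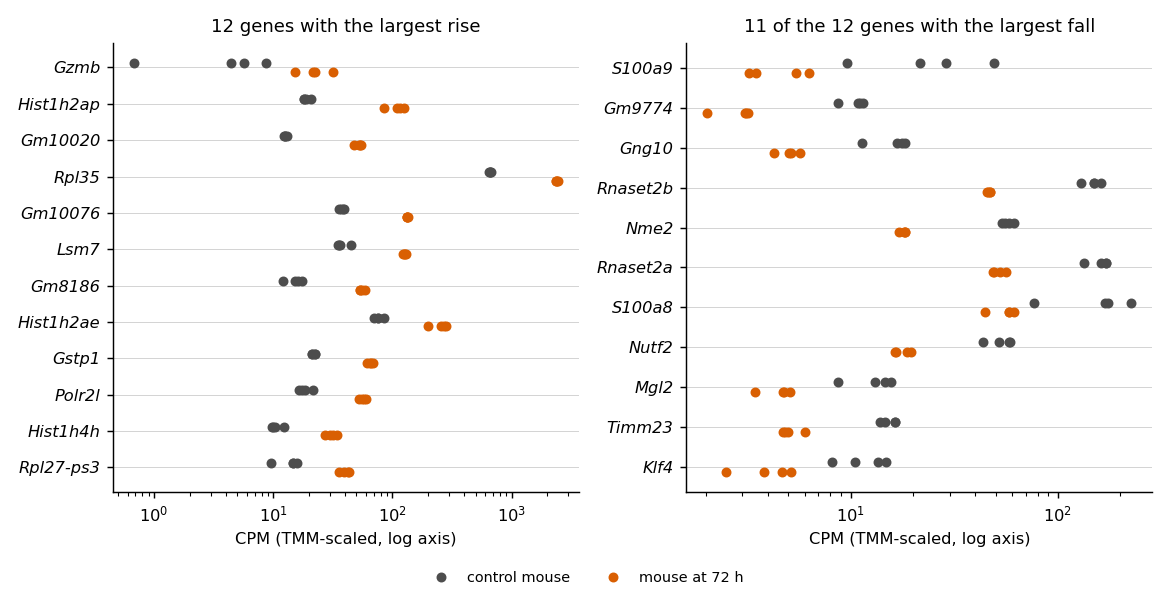
Levels per mouse in CPM on a log axis for the 12 genes with the largest rise (left) and 11 of the 12 with the largest fall (right) among those over 2-fold with no overlap between groups and at least 10 CPM in the higher group, with control mice in grey above and mice at 72 h in orange below each line. Rpl35 moves from 644 to 668 CPM to 2345 to 2453 CPM, and S100a9 shows the widest spread among the falls.

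The falls held several members of close gene pairs. Nme2 (chr11:93949814-93956259), coding for a nucleoside diphosphate kinase, measured 61.2, 57.9, 55.7 and 53.9 CPM in control mice and 18.2, 17.1, 18.1 and 18.4 CPM at 72 h (-1.69, SE 0.06), with changes of -1.48 in HSC-like, -1.47 in LMPP-like, -1.59 in myeloid, -1.73 in erythroid and -1.30 in MK progenitor-like cells. Its log2 fold change against control was 0.29 at 3 h and -0.23 at 24 h. The sum of Nme2 and its neighbour Nme1 went from 639.5 CPM ± 27.8 to 502.1 CPM ± 9.88 (SD, n = 4). Rnaset2a and Rnaset2b, copies of a ribonuclease gene on chromosome 17, fell by 1.66 (SE 0.06) and 1.70 (SE 0.05), and their sum from 306 CPM ± 29.7 to 98.0 CPM ± 3.96. Rpl27-ps3 was among the largest rises, but its sum with Rpl27 went from 1261 CPM ± 25.8 to 1059.7 CPM ± 30.7. Values of such pairs are uncertain, since the sources used here do not give how reads that fit both copies were counted. Gng10, Nutf2, Timm23 and Gm9774 were further large falls, beside S100a8. By the same rule within HSC-like cells, the largest rises were those of Gzmb, Ms4a2, Hist1h2ap, Cpa3 and Scin, and the falls included those of Nme3 (-2.46), Gng10, Nme2 and Gm6133. The call of Scin was lost without any of 4 of the 8 mice and that of Gm6133 without control mouse 3. Within myeloid progenitor-like cells the rises were led by Gm10020 (2.29), Hist1h2ap, Gm8186, 1810009A15Rik and Rpl35, and the falls included those of Gng10, Rnaset2b, Rnaset2a and Nutf2.

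Genes with a longest transcript of at most 750 bases, predicted and pseudogene symbols and histone genes made up 709 of the 12042 genes tested (5.89%), 79 of the 205 rises over 2-fold (38.5%) and 21 of the 140 falls (15%). Leaving them out gave 126 rises and 119 falls. The 99 genes with transcripts of up to 500 bases had a median log2 fold change of 0.59 at 72 h, beside 0.91 at 3 h and 0.41 at 24 h against the same control mice, and the 908 genes of 1001 to 1500 bases had -0.09. Without ribosomal protein genes the median of the shortest genes was 0.56 (94 genes). The grouping by length was chosen after values of these data had been seen, and the part of the library in it was not tested.

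**Figure D5:**
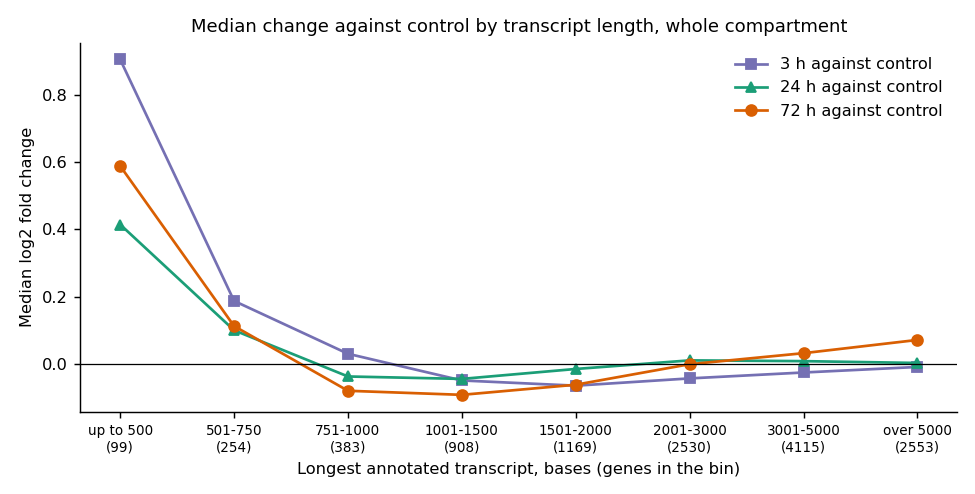
Median log2 fold change against control at 3 h (squares), 24 h (triangles) and 72 h (circles) over genes grouped by their longest annotated transcript in bases, with the number of genes in brackets. The median of the genes up to 500 bases is 0.91, 0.41 and 0.59 at the 3 times, and from 751 bases on all medians lie between -0.09 and 0.07.

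Ribosomal protein genes of the cytosol were mostly higher, with 49 of 84 higher and 22 lower and a median of 0.12. Rps29, a protein of the small subunit, measured 1754 to 1830 CPM in control mice and 3847 to 4040 CPM at 72 h (1.14, SE 0.02), and Rps27, Rps21 and Rpl39 rose by 0.99, 0.93 and 0.92 (SE 0.03, 0.02 and 0.02). The longest transcripts of Rps29, Rps27, Rps21 and Rpl39 have 461, 672, 481 and 612 bases, and the part of transcript length in their rises was not tested. In each class tested, 35 to 50 of 83 members were higher, where 2.87% to 7.85% of all genes were. The ribosomal proteins of mitochondria went the other way, with 3 of 76 higher and 55 lower and a median of -0.21, as Mrpl51 (-0.34, SE 0.04), while Mrpl52 rose by 0.63 (SE 0.05). In HSC-like cells 4 of 76 of these were higher and none lower with edgeR, where 3.57% and 1.64% of all genes were, and in myeloid progenitor-like cells 4 were higher and 16 lower, where 7.85% and 7.32% were.

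Of the 13 genes encoded by the mitochondrial genome 11 were higher and none lower with edgeR, with a median of 0.19. mt-Nd4l, a small subunit of complex I, measured 53.1, 51.8, 52.5 and 61.8 CPM in control mice and 135, 142, 125 and 117 CPM at 72 h (1.29, SE 0.06), and mt-Nd3 of the same complex rose by 1.17 (SE 0.05). The cells had been kept by their share of mitochondrial UMIs, with a median of 1.62% in control and 1.74% at 72 h. Nuclear genes of the respiratory chain were divided, with 20 of 80 higher and 40 lower. The higher members included Cox7c of complex IV (0.63, SE 0.03) and Atp5k and Atp5e of ATP synthase (0.85 and 0.45), while the lower members are not named here. The longest transcripts of mt-Nd4l, mt-Nd3, Atp5k and Cox7c have 297, 348, 563 and 709 bases, and that of Atp5e has 1697. Whether transcript length had a part in these rises was not tested. Histone genes that are transcribed in S phase had 27 of 57 higher and 4 lower, with a median of 0.41, beside the lower S phase list. With each mouse left out in turn 24 to 27 were higher, and over all alternatives of processing 7 to 27.

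Genes of protein export and of protein decay were lower. Of 20 genes of the ER translocon and signal peptidase 15 were lower and 2 higher, with a median of -0.21. Ssr2, of the translocon-associated complex, fell from 360 to 379 CPM to 246 to 288 CPM (-0.48, SE 0.05) and Spcs2 of the signal peptidase by 0.35 (SE 0.04), while Sec61g, a small translocon subunit, rose by 0.39 (SE 0.04). Among 35 proteasome subunits 26 were lower and 2 higher, with a median of -0.19, as Psmb4 (-0.28, SE 0.04). Of 20 genes of the unfolded protein response 9 were lower and 1 higher. Manf, a secreted factor of the stressed ER, fell from 379 to 423 CPM to 256 to 313 CPM (-0.53, SE 0.06) and Sdf2l1, an ER chaperone component, by 0.61 (SE 0.08). Within HSC-like cells none of these members was lower with edgeR, and 1 translocon gene, 2 proteasome subunits and 2 genes of the unfolded protein response were higher, where 3.57% of all genes were. In myeloid progenitor-like cells the numbers lower were 6 of 20, 7 of 35 and 3 of 18, where 7.32% of all genes were lower.

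Metabolic lists differed in direction from one another, and their counts are to be read beside the 18.9% higher and 18.5% lower of all genes tested. Of 19 glycolysis enzymes and transporters 9 were higher and 7 lower, while the summed level was 5149 to 5711 CPM in control mice and 4372 to 4694 CPM at 72 h. Gapdh measured 2012 to 2242 CPM in control mice and 1508 to 1653 CPM at 72 h (-0.44, SE 0.05) and Aldoa fell by 0.34 (SE 0.04), while Pgk1, which catalyses the step after Gapdh, rose from 20.7 to 23.9 CPM to 32.1 to 38.1 CPM (0.66, SE 0.08) and the glucose transporter gene Slc2a3 by 0.78 (SE 0.10). Hk2, coding for hexokinase 2, measured 9.57 to 25.2 CPM and then 30.4 to 33.8 CPM (0.40, SE 0.10). Of 26 genes of purine and nucleotide synthesis 1 was higher and 8 lower, as Pnp, a purine phosphorylase (-0.44, SE 0.05). The summed level of that list was 3050 to 3401 CPM in control mice and 2841 to 2919 CPM at 72 h. Of 21 genes of cholesterol synthesis and uptake 4 were higher, with Srebf2, their transcription factor, among them (0.31, SE 0.08), and 1 was lower. Of 20 aminoacyl-tRNA synthetases 4 were higher and 8 lower, the latter being 3 to 5 without control mouse 1 or 3 or 72 h mouse 2 or 4, and 5 with DESeq2. Of 33 translation factors 7 were higher, or 4 without 72 h mouse 4, and 13 lower. Gpx1 and Ftl1, of peroxide removal and iron storage, fell by 0.45 and 0.32 (SE 0.03 each), within a list of which 3 of 20 were higher and 6 lower.

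Lists of cell death and adhesion had no common direction, and their shares are to be read beside the 18.9% higher and 18.5% lower of all genes tested. Of 17 inflammasome and pyroptosis genes 4 were higher and 4 lower, with Mefv, the pyrin gene of myeloid cells, at -1.14 (SE 0.15), the cytokine gene Il18 at 0.50 (SE 0.14) and the caspase gene Casp4 at 0.39 (SE 0.11), while Casp1 (-0.02, SE 0.07) did not pass. Of 17 genes of necroptosis and death receptors 2 were higher and 3 lower, and Ripk3, the kinase of necroptosis, measured 41.8 to 48.9 CPM in control mice and 45.4 to 49.8 CPM at 72 h without passing the test. Of 15 members of the BCL2 family and its relatives 2 were higher and 4 lower, as the death effectors Bbc3 (0.35, SE 0.09) and Bax (-0.19, SE 0.05). The survival genes Bcl2 (0.15, SE 0.07) and Birc2 (0.04, SE 0.07) did not pass, while Birc5, in this list and in the mitosis list, was lower as given above. Aldh1b1, a mitochondrial aldehyde dehydrogenase, was lower by -0.38 (SE 0.14), a call that was lost without any of 4 mice. Among 22 receptors of homing and adhesion 4 were higher and 8 lower. Cxcr4, which holds progenitors in the marrow, fell from 56.8 to 64.4 CPM to 36 to 40.1 CPM (-0.58, SE 0.06), and the integrin chain genes Itgb1 and Itga4 rose by 0.44 (SE 0.04) and 0.32 (SE 0.05).

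Immediate-early genes, which respond to handling, had 8 of 26 higher and 2 lower, with a summed level of 1315 to 2677 CPM in control mice and 1554 to 2864 CPM at 72 h. Egr1 measured 10.1, 11, 15 and 29.6 CPM in control mice and 22.5, 20.9, 21.9 and 52.9 CPM at 72 h (1.21, SE 0.25, and 0.78 without 72 h mouse 4). Heat shock genes had 1 of 22 higher and 10 lower, or 4 lower without control mouse 3 and 6 without 72 h mouse 1 or 2 or with DESeq2 or the likelihood ratio test. Markers of T cells summed to 27.2 to 32.6 CPM in control mice and 32.6 to 39.0 CPM at 72 h with Cd8a at 0, and those of macrophages to 5.44 to 17.2 CPM and 5.86 to 7.61 CPM. Natural killer cell markers summed to 349 to 629 CPM and 343 to 385 CPM, B and plasma cell markers to 39.0 to 208.6 CPM and 37.5 to 42.1 CPM, and stromal markers to 36.3 to 41.9 CPM and 41.0 to 44.0 CPM.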

How the data were processed

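Per the labels and the study's methods, 3' v3.1 libraries were counted with Cell Ranger 3.1.0 on mm10 and hashtags were assigned with Seurat. The authors deposited raw UMI counts per gene and barcode for 27998 genes, the hashtag call of each barcode, and hashtag scores that were not used here. The gene annotation is not given in the sources used here. Of 3190 control and 3320 barcodes at 72 h, 103 and 113 hashtag doublets and 166 and 181 negatives were removed. Doublets within a mouse carry 1 hashtag and remain. A further 439 and 565 cells were over 5% mitochondrial UMIs, and 180 and 244 were under 700 genes. A single kept barcode occurred in both libraries.

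UMIs were summed per mouse and fitted over all 16 mice with edgeR 4.0.16 (filterByExpr, TMM, quasi-likelihood F test, Benjamini-Hochberg over all genes tested), with limma 3.58.1 and DESeq2 1.42.0 for alternatives, under R 4.3.3. Replicates were separate mice, and summed counts of replicates differed by more than sampling noise. Control cells were clustered with Scanpy 1.11.5 and leidenalg 0.10.2 under Python 3.11.15 (500 variable genes, 10 components, resolution 0.8). Cells at 72 h took the class of their nearest control cells over genes left after removing those changed between libraries, and 93.4% of control cells were given back their own class. Class fits used mice with at least 10 cells, and the test between classes had the mouse as a block. Tested on simulated data, the whole-compartment fit recovered 92.9% of 2-fold and 98.0% of 4-fold changes, and the test between classes 22.2% and 80.8%. The former simulation used the spread estimated for each gene, the latter a fixed spread for all genes and no differences between mice. The rates of the fits are therefore not comparable, and those of the test between classes need not hold for these data.

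Genes named are drawn from the 12 largest rises and 12 largest falls over 2-fold with no overlap and at least 10 CPM, up to 4 members of each list with the lowest p, genes that the study's text names, and the 5 largest rises and falls in the HSC-like and myeloid progenitor-like class. Other members named were chosen for their role. The members and the 46 lists were chosen with earlier results of these data known. Positions are from GENCODE vM21 on GRCm38 (mm10), and promoters from RefSeq. Intervals and floors cover counting error only. Some genes that these rules would name are not reported here.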

Additional observations from a re-analysis of the deposited data

Results flagged for a closer look

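The results given here were singled out because 1 mouse stood far from the other 3 of its group, or because the change differed between HSC-like and myeloid progenitor-like cells in the direct test. Of 230 groups of 4 mice examined for the genes named, 20 had such a mouse. Chance would give about 1 in 20 for independent groups of equally precise mice. The groups share the same mice and control mouse 4 had far fewer UMIs, so that this rate is no measure here.

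In control mouse 4, the mouse with the fewest cells, 12 genes stood apart from the other control mice. Higher there were Iigp1 (24.4 CPM against 3.99 to 5.39), Ifi44 (17.4 CPM against 5.85 to 7.25), Jak1 (104 CPM against 89.9 to 91.7), Lsm7 (45.2 CPM against 35.2 to 36.4), Mycn (33.1 CPM against 18.9 to 21), Psmb4 (324.5 CPM against 303 to 306), Slc2a3 (11.3 CPM against 7.82 to 8.29) and mt-Nd4l (61.8 CPM against 51.8 to 53.1). Lower there were Cd74 (0.870 CPM against 55.7 to 63.8), Hk2 (9.57 CPM against 24.7 to 25.2), Ifit2 (0.870 CPM against 4.68 to 5.45) and Ltb (16.5 CPM against 25.3 to 27.1). H2-Q7 was higher in control mouse 1 (112 CPM against 99.7 to 101.5).

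At 72 h, mouse 4 was higher than the other 3 in Egr1 (52.9 CPM against 20.9 to 22.5), Gimap6 (50.1 CPM against 43.9 to 44.4) and Rpl39 (5792 CPM against 5585 to 5616), and lower in Gm9774 (2.04 CPM against 3.1 to 3.22). Mouse 2 was higher in Jchain (2.02 CPM against 0.0894 to 0.221) and lower in Bax (130 CPM against 136 to 137.5) and Ifit2 (5.84 CPM against 6.90 to 6.97). Without control mouse 4, Mycn, Hk2, Ltb and mt-Nd4l were still called.

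The change at 72 h, as a log2 difference of HSC-like minus myeloid progenitor-like cells, was negative for the ISGs Ifit1 (-2.80), Ifi27l2a (-1.75), Isg15 (-1.70) and Ifitm1 (-0.71), for H2-Q6 (-0.96) and H2-Q7 (-0.51), and for Elane (-0.63). It was positive for the mast cell genes Ms4a2 (4.41) and Cpa3 (1.90), for the genes of DNA synthesis and chromosomes Rrm2 (1.52) and Top2a (0.88), and for the granule genes Mpo (0.52) and Prtn3 (0.44). Each of these differences passed at an adjusted p under 0.05 with edgeR and the mouse as a block.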

How the results depend on the processing

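Counts over all cells beyond 2-fold were 205 higher and 140 lower. RLE factors, library size alone, the likelihood ratio test, DESeq2, the 8 mice alone, all hashtag singlets and leaving out the cells of most UMIs gave 175 to 210 higher and 121 to 149 lower. Without a filter on low counts 298 were higher and 218 lower. With each mouse left out in turn, 179 to 238 were higher and 131 to 164 lower. Thinning every cell left fewer counts and gave 669 higher and 682 lower at an adjusted p under 0.05 and 67 and 78 beyond 2-fold. Taking short transcripts, copies and histone genes out of the genes already called, without a new fit or adjustment, left 126 higher. The last alternative, and the matching of control cells like those at 72 h, were chosen after the data had been seen. With that matching, 12 rather than 25 genes were over 2-fold higher in the difference between classes, the change of Prtn3 in HSC-like cells was -0.0042, and the difference in the share of LMPP-like cells was 0.1503 rather than -1.2686 percentage points. With labels transferred over all variable genes, the difference was -0.0688 for Ba/MC/Eo progenitor-like cells, -0.1597 for unnamed clusters (-0.1093 over all hashtag singlets), and Irf8 in the myeloid progenitor-like class was at -0.045. The cause of these reversals was not tested.

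With each mouse left out in turn, the genes lower numbered 97 to 186 in HSC-like, 77 to 132 in LMPP-like, 38 to 214 in erythroid and 75 to 107 in MK progenitor-like cells, those higher in erythroid cells 165 to 302, those higher in the difference between classes 81 to 146, and those over 2-fold lower in it 6 to 15. The share difference of Ba/MC/Eo progenitor-like cells ran from -0.3983 to 0.7734. Of 38 list counts of 1 to 5 members over all cells, 17 moved by more than 1.5 times without some mouse. Genes that had not passed changed sign, as Birc2 (-0.0214 to 0.0666), Casp1 (-0.0497 to 0.0379), Ifnar1 (-0.0704 to 0.0331), Irf7 (-0.3174 to 0.0025), Irf9 (-0.0381 to 0.0934), Ripk3 (-0.0251 to 0.0273), Irf8 in myeloid progenitor-like cells (-0.0401 to 0.0712) and the class difference of H2-Q4 (-0.1933 to 0.0127).

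In thinned cells Aldh1b1 was at 0.0975, Bcl2 at -0.0071, Birc2 at -0.2314, Casp1 at 0.2741, Ifnar1 at 0.2484, Irf9 at -0.312 and Ripk3 at -0.0048, and Bax, Bbc3, Casp4, Ccnd2, Cpox, Csf1r, Dtx3l, Hba-a2, Ifnar2, Iigp1, Il18, Jak1, Mnda, Oas1a and Srebf2 kept their direction without passing. Ifnar1 was at 0.0416 over all hashtag singlets and 0.0035 without the cells of most UMIs, and Ripk3 at -0.008 by library size, -0.0008 without a filter and -0.0156 over all singlets. Iigp1 was at -0.0079 with DESeq2 against 0.6661 with edgeR. Ifit2 passed the likelihood ratio test and DESeq2. In HSC-like cells Ifitm1 and Scin did not pass with labels transferred over all variable genes.

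Hashtag numbers are shared between the groups, and the deviations of same-numbered mice had correlations of 0.287, -0.196, 0.0267 and 0.171 over 3892 genes. The mean correlations of the same control mice with the other mice at 72 h were -0.0720, 0.0832, 0.00611 and -0.0828. These values do not settle whether the numbers pair the mice, which were treated as unpaired. With the hashtag number as a replicate block, 206 genes were over 2-fold higher and 141 lower, and Casp1 was at 0.0001. Depth limits the classes, in which mice with few cells carry large counting errors.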
